A study of Mus musculus with 3 samples.

Results

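TRBV3 is a V gene of the mouse T cell receptor β locus, known under an older name as Vβ16. It was followed here through T cells that had entered the sciatic nerve of neuropathic mice. Its members were the productive β chain (TRB) contigs of called cells to which Cell Ranger had assigned TRBV3. There were 221 such contigs in 221 cells, of 6256 cells with a TRB, and they held 136 different rearrangements of 3872 in all. Contigs of a library with identical V gene, J gene and CDR3 nucleotides were counted as 1 rearrangement.

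Nerves came from female NOD.AireGW/+ mice, which carry the GW allele of Aire, a regulator of self-antigen expression in the thymus, on the NOD background. All mice had neuropathy, their age was not given in the sources used here, and CD45+ cells were sorted before droplet-based 5′ scTCR-Seq. The 4 mice were spread over 3 libraries. A single mouse gave replicate 1 and another replicate 2, while 2 mice were pooled in replicate 3 and cannot be told apart. The libraries belong to 1 condition, so no condition was compared with another. Replicates 1 to 3 had 2374, 3555 and 705 cells with 34630, 41338 and 5142 unique molecular identifiers (UMIs) on their contigs. TRBV3 contigs carried a median of 8.5, 8 and 5 UMIs, against 7, 6 and 4 for TRBs of other V genes. Across the libraries 10 cell barcodes occurred more than once, and 0 of them belonged to a TRBV3 cell.

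A β chain is built by joining a V, a D and a J segment, with bases trimmed from the segment ends and others added between them. CDR1 and CDR2 are encoded by the V gene itself, whereas CDR3 spans the joints and differs from clone to clone. The α chain (TRA) is rearranged separately, and the pair forms the receptor that reads a peptide on an MHC molecule.

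The assigned V gene was checked against the genome. GENCODE M21 places Trbv3 on the plus strand of chromosome 6 at chr6:41048290-41048828 (GRCm38), with exons at chr6:41048290-41048442 and chr6:41048527-41048828. The deposited annotation gave the sequence of the V region for replicates 2 and 3. All 94 contigs of replicate 2 and all 39 of replicate 3 had the same 273 bases from framework 1 to framework 3, with 0 differences from GRCm38 at chr6:41048535-41048807. That sequence is shown because it was common to all TRBV3 cells of replicates 2 and 3, with CDR1 and CDR2 in capitals.
TRBV3 framework 1 to framework 3: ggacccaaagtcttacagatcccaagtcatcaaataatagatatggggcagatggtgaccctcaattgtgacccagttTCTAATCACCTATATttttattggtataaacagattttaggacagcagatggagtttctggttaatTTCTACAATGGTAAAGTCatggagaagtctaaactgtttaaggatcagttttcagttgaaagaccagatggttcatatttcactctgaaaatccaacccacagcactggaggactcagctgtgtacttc

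The germline end that enters CDR3 is shown next with both D segments, since the junctions below are read against them. It runs over 17 bases from the conserved cysteine codon at chr6:41048808-41048824, and the capitals mark the heptamer that follows, where the recombinase cuts.
TRBV3 germline end: tgtgccagcagcttagcCACAGCC
TRBD1, chr6:41533201-41533212: gggacagggggc
TRBD2, chr6:41542163-41542176: gggactgggggggc

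TRBV3 was a V gene of intermediate use. It made 42 of 1302 TRB rearrangements in replicate 1, or 3.23% (exact 95% interval 2.34% to 4.34%). In replicate 2 it made 66 of 2033, or 3.25% (2.52% to 4.11%). In replicate 3 it made 28 of 537, or 5.21% (3.49% to 7.45%). The mean was 3.90% ± 1.14 (SD, n = 3 libraries), the 12th highest of the 22 TRBV names in the files. Replicate 3 was the highest, and its interval overlapped those of both other libraries. The 6 genes TRBV31, TRBV13-2, TRBV2, TRBV15, TRBV10 and TRBV14, on either side of TRBV3 in that order, had shares whose range over the libraries overlapped its own. All intervals here are Clopper-Pearson intervals that treat cells or rearrangements as independent and cover counting error only.

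Counted by cells, TRBV3 was in 88 of 2253 cells with a TRB in replicate 1, or 3.91% (3.14% to 4.79%). It was in 94 of 3361 in replicate 2, or 2.80% (2.27% to 3.41%), and in 39 of 642 in replicate 3, or 6.08% (4.36% to 8.21%). By this measure TRBV3 ranked 8th, with a mean of 4.26% ± 1.67 (SD, n = 3 libraries). Without the largest TRBV3 rearrangement of each library the shares were 2.92%, 2.30% and 5.49%.

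**Figure D1:**
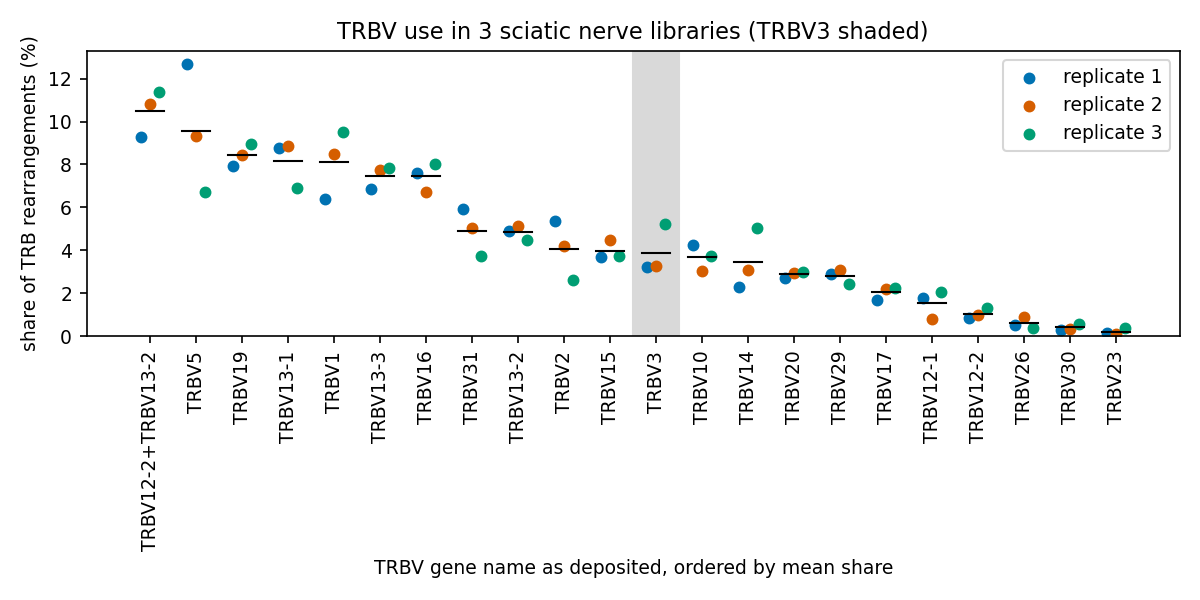
Share of TRB rearrangements (%) for each TRBV name, ordered by the mean of the 3 libraries; points are libraries and black lines their means. TRBV3 (shaded) lies at 3.23%, 3.25% and 5.21%, a range that overlaps those of the neighbouring genes.

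TRBV3 CDR3s began mostly with residues that the gene encodes. The start CASSL, whose leucine codon tta is germline, opened 76 of 136 rearrangements (55.9%): 23 in replicate 1, 36 in replicate 2 and 17 in replicate 3. Other V genes, pooled, had this start in 13.5%, 11.5% and 11.6% of their rearrangements. That pool mixes genes whose germline end also encodes CASSL with genes whose end does not. The former are TRBV12-1, TRBV12-2, TRBV15, TRBV16, TRBV26 and TRBV29. Their own share of CASSL was not computed, so the contrast does not set TRBV3 apart from them. Of the 76 TRBV3 rearrangements with this start, 63 kept the whole germline codon and 13 reached leucine with other bases after trimming. CASSP followed with 18 rearrangements, then CASSF and CASSS with 10 each and CASSY with 5. All but 2 of the 136 rearrangements began with CASS.

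The exact match to the germline end ran over a median of 14, 14 and 15 bases of 17 in replicates 1 to 3. It was 12 bases or more in 132 of 136 rearrangements, and 11 rearrangements kept the full end. An added base that happens to equal the germline base counts as kept, so these lengths can only overstate what was left of the gene. D segments were matched over at least 4 bases. TRBD2 was found in 58 rearrangements, TRBD1 in 57 and a stretch common to both in 3, and 18 had no match of that length. In TRBJ1 rearrangements, for which only TRBD1 was searched because TRBD2 lies downstream of that cluster, 29 of 34 held a TRBD1 match. In TRBJ2 rearrangements, where both were searched, TRBD2 was matched in 58 and TRBD1 in 28. Where different stretches of equal length matched both segments, TRBD1 was called.

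CDR3 length of TRBV3 was close to that of the rest of the repertoire. The mean was 14.07 residues in replicate 1 (SD 1.35), 14.12 in replicate 2 (SD 1.48) and 14.14 in replicate 3 (SD 1.46). The range was 12 to 17, 10 to 17 and 11 to 17 residues. Other V genes had means of 14.0, 13.92 and 13.99, so that TRBV3 was longer by 0.14 ± 0.06 residues (SD of the difference, n = 3 libraries). This difference was in the same direction in all 3 libraries and was small beside the SD between rearrangements of a library. Among the 18 V genes with at least 50 rearrangements, TRBV3 ranked 7th in mean length.

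**Figure D2:**
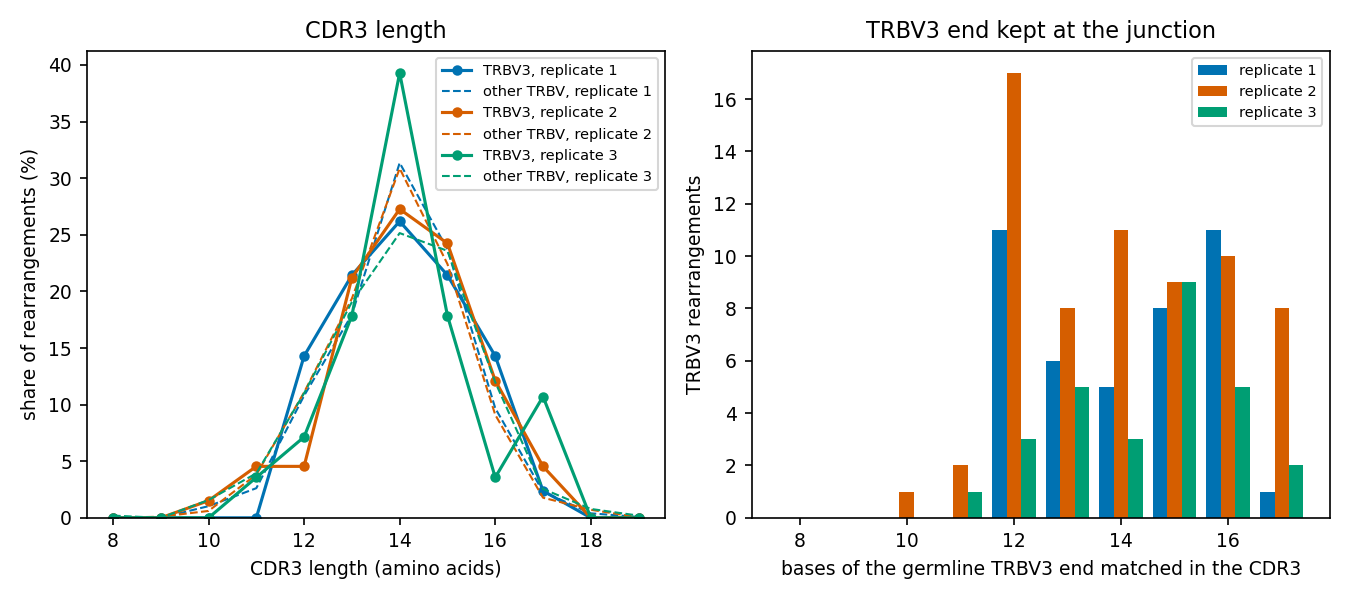
Left, share of rearrangements (%) by CDR3 length in residues for TRBV3 (points and solid lines) and other TRBV genes (dashed lines) in each library; right, number of TRBV3 rearrangements by the number of germline TRBV3 bases matched at the start of CDR3. Length peaks at 14 residues for TRBV3 in every library, and 12 bases or more were matched in 132 of 136 rearrangements.

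The number of bases that matched no germline segment did not set TRBV3 apart. It averaged 3.88 in replicate 1 (SD 2.32), 3.94 in replicate 2 (SD 2.36) and 3.14 in replicate 3 (SD 2.42). Over the 3197 rearrangements of other V genes that could be matched, it averaged 3.79, 3.67 and 4.20. The difference, TRBV3 minus other, was 0.09, 0.27 and -1.06 bases, or -0.23 ± 0.72 (SD, n = 3 libraries), and so changed sign between libraries. Without replicate 3 it was 0.18. In 9 TRBV3 rearrangements every base of CDR3 matched a germline segment. As shares these were 7.14%, 6.06% and 7.14% in replicates 1 to 3, against 6.83%, 7.48% and 4.44% for other V genes.

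TRBV3 was joined to TRBJ2 genes in 102 of 136 rearrangements. The share was 35 of 42 in replicate 1, or 83.3% (68.6% to 93.0%), 47 of 66 in replicate 2, or 71.2% (58.8% to 81.7%), and 20 of 28 in replicate 3, or 71.4% (51.3% to 86.8%). Other V genes had 66.4%, 64.4% and 67.8%, below TRBV3 in each library and within its interval in replicates 2 and 3. Stratified by library, 102 were observed against 89.8 expected, a ratio of 1.14 (exact two-sided conditional test, p = 0.0266). After Benjamini-Hochberg adjustment over the 21 TRBV genes with at least 10 rearrangements, p was 0.138 in the exact test, so the difference did not pass. Of those 21, 1 passed (4.76%). It was the joint name TRBV12-2+TRBV13-2, which stands for no single segment. In the alternative that kept only cells with exactly 1 TRB, TRBV3 did pass, with a ratio of 1.19 and an adjusted p of 0.0232 in the exact test. How many other genes passed in that alternative was not counted, so passing there does not set TRBV3 apart. These tests compare rearrangements within the libraries and not mice.

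The J gene was matched by the constant gene as the order of the locus requires, since TRBJ2 lies downstream of TRBC1. All 39 contigs with a TRBJ1 gene carried TRBC1. Of 182 contigs with a TRBJ2 gene, 180 carried TRBC2 and 2 had no constant gene assigned.

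TRBJ2-7 was the gene most used with TRBV3, in 10, 16 and 12 rearrangements of replicates 1 to 3. These were 23.8%, 24.2% and 42.9% of TRBV3 rearrangements, against 20.8%, 19.7% and 16.9% for other V genes. The 38 observed stood against 27 expected (ratio 1.41), with p = 0.0210 before and 0.241 after adjustment in the exact test. TRBJ1-6 was the least used, in 0, 1 and 0 rearrangements against 4.22 expected in all (adjusted p = 0.708, exact test). None of the 12 pairs of TRBV3 with a TRBJ gene passed in the exact test with Benjamini-Hochberg adjustment over all 252 TRBV and TRBJ pairs, of which 4 passed (1.59%). Before adjustment 1 of the 12 had a p under 0.05, beside 12.3% of all pairs. Individual J genes varied between libraries. TRBJ2-3 was in 9, 3 and 2 TRBV3 rearrangements of replicates 1 to 3, or 21.4%, 4.55% and 7.14%. TRBJ2-5 stayed between 10.7% and 12.1%. No interval was computed for these shares, so counting error was not set apart from differences between libraries.

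**Figure D3:**
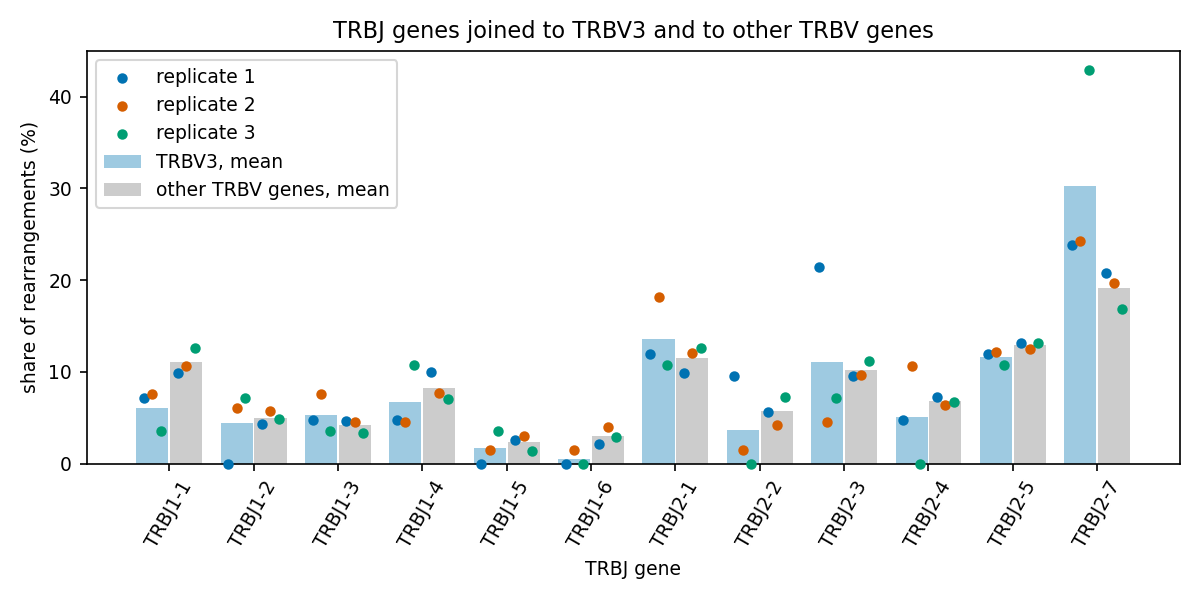
Share of rearrangements (%) with each TRBJ gene for TRBV3 (blue bars) and for other TRBV genes (grey bars), as means of 3 libraries with a point per library. TRBJ2-7 is the highest bar for TRBV3, at 23.8%, 24.2% and 42.9% by library, against 20.8%, 19.7% and 16.9% for other genes.

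By the distance between profiles of TRBJ use (the summed absolute difference of shares over 12 TRBJ genes, halved, so that 0 is identical), TRBV3 was nearest to 3 names. These were TRBV12-2+TRBV13-2 at 0.132, TRBV19 at 0.152 and TRBV31 at 0.159, of 17 with at least 50 rearrangements. The farthest was TRBV29 at 0.345. Profiles of genes with few rearrangements carry more counting error, and no test was run on this order.

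Most TRBV3 rearrangements were seen in 1 cell. This held for 33 of 42, 57 of 66 and 22 of 28 rearrangements of replicates 1 to 3. Rearrangements of 2 to 5 cells numbered 6, 8 and 6, those of 6 to 20 cells 2, 1 and 0, and there was 1 of over 20 cells, in replicate 1. Rearrangements of more than 1 cell made 21.4% (10.3% to 36.8%), 13.6% (6.43% to 24.3%) and 21.4% (8.30% to 41.0%) of TRBV3 rearrangements. Other V genes had 20.4%, 22.4% and 11.98%, so TRBV3 was lower in replicate 2 and higher in the other libraries. Over the libraries 24 were observed against 26.7 expected (ratio 0.899, adjusted p = 0.882, exact two-sided test over 21 genes, of which 1, or 4.76%, passed). The direction was not stable, since without replicate 2 the ratio was 1.24.

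**Figure D4:**
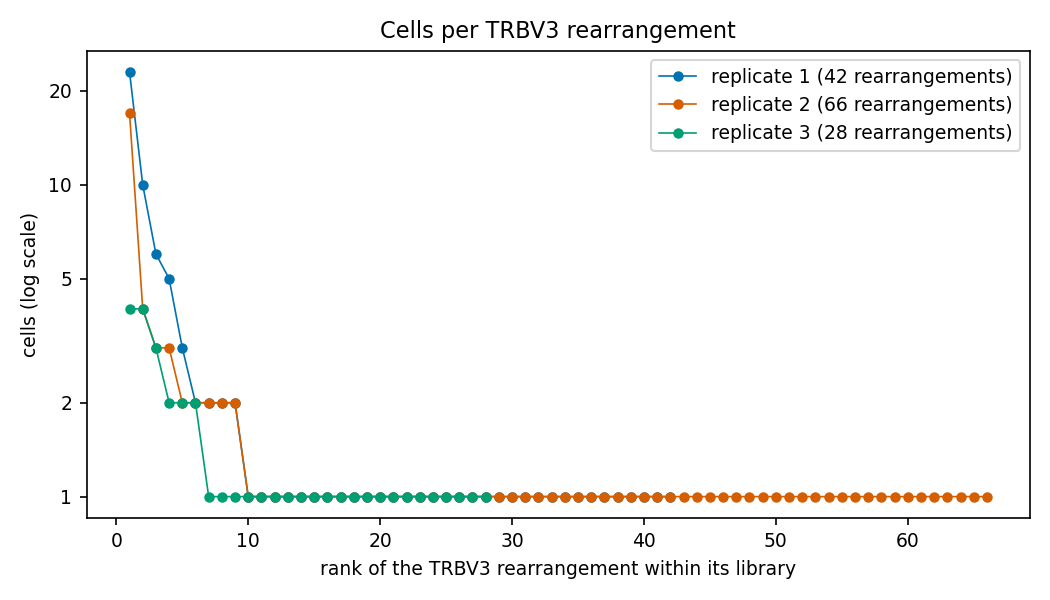
Number of cells (log scale) of each TRBV3 rearrangement, ranked within its library; each point is 1 rearrangement. The largest had 23 cells in replicate 1, 17 in replicate 2 and 4 in replicate 3, and 112 of 136 lie at 1 cell.

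The CDR3s of the largest TRBV3 rearrangements of each library are shown with the bases that matched no germline segment in capitals, because they are the clones with the most TRBV3 cells of their library. Together the 9 hold 74 of the 221 TRBV3 cells, 39 in replicate 1, 24 in replicate 2 and 11 in replicate 3.
Replicate 1, 23 cells, TRBJ2-5: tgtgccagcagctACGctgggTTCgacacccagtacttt
Replicate 1, 10 cells, TRBJ2-3: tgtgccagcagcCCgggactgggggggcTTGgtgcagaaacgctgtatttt
Replicate 1, 6 cells, TRBJ2-7: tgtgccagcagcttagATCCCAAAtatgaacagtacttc
Replicate 2, 17 cells, TRBJ2-7: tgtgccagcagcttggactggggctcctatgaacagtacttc
Replicate 2, 4 cells, TRBJ2-4: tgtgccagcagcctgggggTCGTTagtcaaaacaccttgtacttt
Replicate 2, 3 cells, TRBJ2-1: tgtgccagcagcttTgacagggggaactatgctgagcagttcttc
Replicate 3, 4 cells, TRBJ2-7: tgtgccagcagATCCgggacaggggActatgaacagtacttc
Replicate 3, 4 cells, TRBJ2-3: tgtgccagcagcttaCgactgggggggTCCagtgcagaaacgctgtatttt
Replicate 3, 3 cells, TRBJ2-5: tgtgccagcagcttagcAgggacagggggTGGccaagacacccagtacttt

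All 9 used a TRBJ2 gene, beside 19 of the 24 TRBV3 rearrangements of more than 1 cell and 102 of all 136. A further rearrangement of replicate 2 also had 3 cells. The largest in replicate 1, which translates to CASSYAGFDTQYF, was 26.1% of the TRBV3 cells of that library and 1.02% (0.648% to 1.53%) of all its cells with a TRB. It had 6 unmatched bases. Its TRA, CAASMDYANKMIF (TRAV7D-2, TRAJ47), was found in 21 of the 23 cells, and the other 2 cells had no TRA. The largest in replicate 2 was 18.1% and the largest in replicate 3 10.3% of their library's TRBV3 cells.

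The rearrangement of 10 cells in replicate 1 stood apart in its α chain. A productive TRA was found in 1 of its 10 cells (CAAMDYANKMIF, TRAV5-4, TRAJ47), although its TRB had a median of 12.5 UMIs. Of the 10 cells, 5 held a TRAV3-1 and TRAJ32 contig that was not productive, with the same junction in each. Among the called cells of the library that junction occurred in those 5 and no others. Of the 5 cells, 4 had no productive TRA, and in 2 the contig was not full length and had 1 UMI. Of 54 TRB rearrangements of at least 10 cells, over all V genes and libraries, the one described here had the second highest share of cells without a TRA. Its share was 90%, and 5 of the 54 had a share over 50%.

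The rearrangement of 6 cells in replicate 1, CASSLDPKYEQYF, had the TRA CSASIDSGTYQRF (TRAV5-1, TRAJ13) in 5 cells. A further TRB was found in 3 of its 6 cells, a different one in each. In replicate 3, the 4 cells of the TRBJ2-3 rearrangement all held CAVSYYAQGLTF (TRAV7D-3, TRAJ26). Of the 24 TRBV3 rearrangements of more than 1 cell, 20 had a single TRA among their cells and 4 had several. The 20 include rearrangements with a TRA in only 1 cell, where agreement between cells could not be seen. Examples are the rearrangement of 10 cells and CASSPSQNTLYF of replicate 2, with a TRA in 1 of 3 cells. The same count was not made for other V genes.

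Of 135 TRBV3 CDR3 amino acid sequences, 3 were also made with another V gene, or 2.22% (0.461% to 6.36%). This was the 8th highest share of 18 genes with at least 50 CDR3s, which ran from 0% to the 34.0% of TRBV13-2. The latter counts the joint name TRBV12-2+TRBV13-2 as another gene, so it is not a share made with a different gene. All 3 were in replicate 2 as TRBV3. In each the J gene was the same with both V genes and the nucleotide sequence was different, so these were separate rearrangements. They are shown together with their partners, with unmatched bases in capitals, to set out how near the nucleotide sequences were.
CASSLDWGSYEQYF, TRBV3, TRBJ2-7, 17 cells of replicate 2: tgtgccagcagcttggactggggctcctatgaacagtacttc
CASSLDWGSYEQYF, TRBV14, TRBJ2-7, 23 cells of replicate 2: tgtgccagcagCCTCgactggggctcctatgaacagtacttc
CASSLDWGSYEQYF, TRBV10, TRBJ2-7, 2 cells of replicate 2 (not matched to segments, since the reference lists TRBV10 as a pseudogene): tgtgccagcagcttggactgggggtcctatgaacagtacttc
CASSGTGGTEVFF, TRBV3, TRBJ1-1, 1 cell of replicate 2: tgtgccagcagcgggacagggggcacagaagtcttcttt
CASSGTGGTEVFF, TRBV13-3, TRBJ1-1, 1 cell of replicate 2: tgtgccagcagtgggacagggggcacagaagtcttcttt
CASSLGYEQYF, TRBV3, TRBJ2-7, 1 cell of replicate 2: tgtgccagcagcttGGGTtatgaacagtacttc
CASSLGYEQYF, TRBV17, TRBJ2-7, 1 cell of replicate 3: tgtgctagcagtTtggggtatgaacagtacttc

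The first of these carried most of the cells. As TRBV3 it matched germline segments at all 42 bases and had 0 unmatched bases, whereas the TRBV14 rearrangement had 4. The TRBV14 sequence differed from it at 2 bases and the TRBV10 sequence at 1. The α chains were different, since the TRBV3 cells had a TRAV5-1 and TRAJ45 chain in 15 of 17 cells, the TRBV14 cells a TRAV6-2 and TRAJ40 chain in 20 of 23, and the TRBV10 cells a TRAV4-3 and TRAJ30 chain in 2 of 2. The TRBV3 contigs had a median of 16 UMIs and those of TRBV14 a median of 7. The motif DWG was in 8 of 136 TRBV3 rearrangements, 2 in replicate 1, 5 in replicate 2 and 1 in replicate 3. As shares these were 4.76%, 7.58% and 3.57%, beside 4.84%, 5.19% and 5.11% for other V genes.

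A single TRBV3 chain occurred in more than 1 library, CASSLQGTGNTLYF with TRBJ1-3, in 1 cell of replicate 1 and 1 cell of replicate 3. This was 1 of 135 TRBV3 combinations of CDR3 and J gene, or 0.741% (0.0188% to 4.06%), against 50 of 3665, or 1.36% (1.01% to 1.80%), for the other V genes. Both cells also held the same α chain by amino acid sequence, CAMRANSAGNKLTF (TRAV7D-5, TRAJ17). That α sequence was also found in replicate 2, built with TRAV16N and TRAJ17 and in 3 cells with TRBV13-3, of which 1 also had a TRBV5 chain. The sequences are shown because both chains recurred in different mice with different nucleotides. In the TRB lines capitals mark bases that matched no germline segment, and the TRA was not matched to segments.
TRB, replicate 1: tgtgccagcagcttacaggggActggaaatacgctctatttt
TRB, replicate 3: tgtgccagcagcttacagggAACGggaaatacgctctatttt
TRA, replicate 1: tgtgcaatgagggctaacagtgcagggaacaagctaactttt
TRA, replicate 3: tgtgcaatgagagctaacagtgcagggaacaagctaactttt

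The TRB sequences differed at 2 of 42 bases and the TRA sequences at 1 of 42. The cell of replicate 1 also held a further TRB, of TRBV10, and a further TRA, of TRAV2, whereas the cell of replicate 3 held 1 chain of each kind. The TRB had 9 UMIs in replicate 1 and 12 in replicate 3, and the TRA had 7 and 4. Over all V genes, 12 of 3754 combinations of a TRB and a TRA amino acid sequence were found in more than 1 library, and this was the only 1 of 117 with TRBV3. It rests on a single cell in each library.

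The α partners of TRBV3 were diverse. There were 118 paired TRB and TRA rearrangements with TRBV3, 43 in replicate 1, 56 in replicate 2 and 19 in replicate 3, and they used 47 TRAV genes of 17 families and 37 TRAJ genes. TRAV7 was the most used family, with 10, 3 and 6 pairs, followed by TRAV6 with 5, 6 and 4 and TRAV13 with 6, 6 and 1. As a share TRAV7 made 23.3%, 5.36% and 31.6% of TRBV3 pairs, against 11.3%, 11.1% and 9.83% for other V genes, so replicate 2 went the other way. The 19 observed TRAV7 pairs stood against 13.2 expected (ratio 1.44, adjusted p = 0.796, exact test). None of the 18 families tested passed in the exact test with Benjamini-Hochberg adjustment over 378 TRBV and TRAV pairs, of which 1 passed (0.265%). Before adjustment 1 family had a p under 0.05, beside 6.08% of all pairs. It was TRAV8, with 1 pair against 6.42 expected, p = 0.0205 before and 0.554 after adjustment in the exact test.

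TRBV3 cells had no productive TRA in 22 of 88 cells of replicate 1, or 25.0% (16.4% to 35.4%), 23 of 94 of replicate 2, or 24.5% (16.2% to 34.4%), and 15 of 39 of replicate 3, or 38.5% (23.4% to 55.4%). Cells with another V gene had none in 16.8%, 21.8% and 37.98%. In replicate 1, 9 of the 22 came from the rearrangement of 10 cells described above, and without it the share was 13 of 78, or 16.7% (9.18% to 26.8%). So that cells of a clone were not counted as independent, the comparison was made over rearrangements of 1 cell, leaving out larger ones. There, a TRA was lacking from 9 of 33 TRBV3 rearrangements (27.3%) of the first library, 17 of 57 (29.8%) of the second and 10 of 22 (45.5%) of the third, against 12.3%, 22.1% and 36.6% for other V genes. TRBV3 was higher in all 3 libraries, with 36 observed against 25.1 expected (ratio 1.43, p = 0.0131, exact two-sided test). The adjusted p was 0.274, and 0 of the 21 TRBV genes passed (0%), although 3 had an unadjusted p under 0.05. With every rearrangement of any size counted once, the ratio was 1.37 and the adjusted p 0.264 in the exact test. Among TRBV3 cells, those without a TRA had a median of 7.5, 8 and 4 UMIs on the TRB, and those with one 9, 8 and 5. How far recovery of the TRA contributed was not tested.

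**Figure D5:**
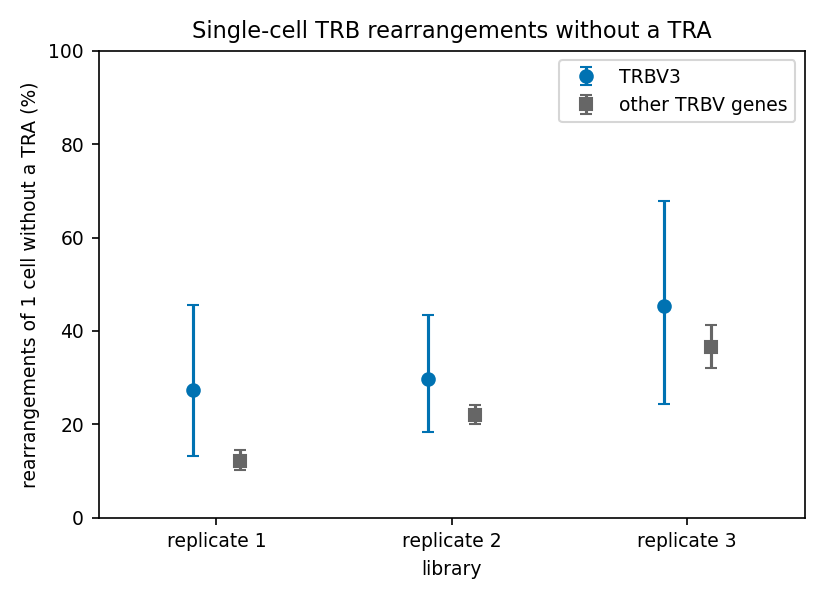
Share (%) of TRB rearrangements of 1 cell that had no productive TRA, for TRBV3 (blue circles) and other TRBV genes (grey squares), with exact 95% intervals, in each library. TRBV3 is at 27.3%, 29.8% and 45.5%, above the other genes in each library, and the intervals overlap in all 3.

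A further TRB was found in 12 of the 88 TRBV3 cells of replicate 1, or 13.6% (7.25% to 22.6%), in 9 of 94 of replicate 2, or 9.57% (4.47% to 17.4%), and in 0 of 39 of replicate 3, which allows a share of up to 7.69% if a count of 0 is taken to allow 3 counts. Cells without TRBV3 had more than 1 TRB in 4.71%, 6.37% and 1.66%. Doublets were neither called nor removed here, so these cells may hold more than 1 T cell, which was not tested. A cell with 2 TRBs has 2 chances to be counted under a V gene, so the share for a single gene is higher by construction. None of the further TRBs belonged to a rearrangement of over 20 cells. The number expected from the share of such rearrangements among all TRBs was not computed, so no conclusion is drawn from this. The further TRB had more UMIs than the TRBV3 chain in 4 of 12 cells of replicate 1 and 6 of 9 of replicate 2. A second TRA was found in 8, 6 and 1 TRBV3 cells, or 9.09%, 6.38% and 2.56%, against 8.59%, 7.84% and 3.15% of the other cells. Exactly 1 TRA and 1 TRB were found in 51, 58 and 23 TRBV3 cells.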

How the data were processed

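The data were droplet-based scTCR-Seq contigs of CD45+ sciatic nerve cells in 3 libraries of 1 condition, grouped by the series' labels. Reads had been processed by the authors with Cell Ranger against mm10 (version not given in the sources used here), and they deposited the counts of UMIs and of reads for each contig. The annotation had 18 columns for replicate 1 and 31 for each of the others, so software versions may differ between libraries. TRBV3 members and the lists and tests used were chosen with earlier results of these data known.

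Productive contigs of called cells were used as deposited, and 2 V names were left out of germline matching. TRBV10 had no functional segment in the reference, and TRBV12-2+TRBV13-2 is a joint name that stands for no single segment. V bases were the longest exact match of CDR3 to the germline end, which was taken where a CAC heptamer follows, J bases the longest exact match at the other end, and D bases the longest stretch of at least 4 bases in common with TRBD1 or TRBD2 between them. Segments came from GRCm38 with GENCODE M21 and RefSeq coordinates.

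Shares of rearrangements were compared by an exact two-sided conditional test stratified by library, for genes with 10 rearrangements or more, and called at 0.05 after Benjamini-Hochberg adjustment over all genes or pairs. The test was checked on simulated data. Named were the 3 largest TRBV3 rearrangements per library, chains in more than 1 library, CDR3s shared with other V genes, the most and least used J gene and the 3 most used TRAV families. The families of an adjusted p under 0.05 were to be added, and there were none. TRAV8, the second TRBs, the α chain of the rearrangement of 10 cells and the pair found in both replicates 1 and 3 were described after their values were seen. TRBJ2-3, TRBJ2-5 and the DWG motif were also described outside these naming rules. UMIs (954, 905 and 225 on TRBV3 contigs) and cells limit the precision. Because reads without UMIs are not independent molecules, reads were not used. Alternatives were a minimum of 3 UMIs, cells with 1 TRB, cells with 1 TRB and 1 TRA, amino acid rearrangements, other limits of expansion (over 2 and over 5 cells), D matches of 3 or 5 bases, CDR3s shared within a library only, each rearrangement counted once for the TRA, and leaving out each library. The tools were scipy 1.17.1, numpy 2.4.6 and pandas 2.3.3 under Python 3.11.15, with pysam 0.24.0 for the genome and matplotlib 3.10.9 for plots. Doublets were not called. Gene expression was not analysed here.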

Additional observations from a re-analysis of the deposited data

Results flagged for a closer look

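TRBV3 was also seen outside the cells and chains described above. On barcodes that were not called cells there were 239 productive TRBV3 contigs in replicate 1, 58 in replicate 2 and 34 in replicate 3. They made 3.43% (3.02% to 3.89%), 4.11% (3.13% to 5.27%) and 6.27% (4.38% to 8.66%) of the TRB contigs on such barcodes. Of them, 189, 40 and 27 had a rearrangement that was also found in a TRBV3 cell of the same library, or 79.1%, 69.0% and 79.4%. Their median was 1, 5 and 1 UMIs. In replicate 1, 86 of the 239 were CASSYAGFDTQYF, the largest TRBV3 rearrangement of its cells, and in replicate 2, 24 of the 58 were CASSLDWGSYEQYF, again the largest. In replicate 3 the most common was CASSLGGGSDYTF, with 6 of the 34, which was in 1 cell and not among the largest. The libraries differed in annotation format (18 columns in replicate 1, 31 in the others), and the part of software version in these numbers was not tested.

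Called cells held 10 TRBV3 contigs that were not productive in replicate 1, 17 in replicate 2 and 1 in replicate 3. Counted from the germline cysteine codon, 19 of their 23 distinct junctions were out of frame, and of these 5 used a TRBJ2 gene, or 26.3% (9.15% to 51.2%). The productive TRBV3 rearrangements used one in 75% (66.9% to 82.0%). By library the out-of-frame junctions with TRBJ2 were 3 of 7, 2 of 11 and 0 of 1. The contigs that were not productive had a median of 2 UMIs in each library. TRBJ2 use of such junctions was not computed for other V genes, and the difference was not tested.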

How the results depend on the processing

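Of 61 values recomputed, 57 kept their direction and their side of the threshold, or moved by less than the spread between libraries. TRBJ2 use of TRBV3 passed only with cells of exactly 1 TRB (ratio 1.19, adjusted p = 0.0232 against 0.138, exact test), and the adjusted p ran from 0.0232 to 0.403 over its alternatives. The ratio of expanded TRBV3 rearrangements changed direction to 1.03 in cells with 1 TRB and ran from 0.776 to 1.24 when each library was left out, without passing. CDR3s also made with another V gene fell to 0% without replicate 2 and were 3.19% without replicate 1, since all 3 came from replicate 2. The cause of the changes in TRBJ2 use and in expansion was not tested. Counts of TRBV3 pairs past the threshold stayed at 0 under every alternative run.

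No paired analysis was possible because all libraries share 1 condition. Few rearrangements (28 in replicate 3) and UMIs limit what can be seen, the 2 mice of replicate 3 cannot be told apart, and V names are Cell Ranger's.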
